A study of Homo sapiens with 3 samples.

Results

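Strong SP1 summits at single gene ends were positions where the transcription factor SP1 was called with a score above 10 close to 1 protein-coding gene and no other. The members were selected on the SP1 score and on position: a summit off chromosome 19, scored above 10, and within 1000 bases of a span end of exactly 1 RefSeq protein-coding gene. This held for 451 of the 5570 SP1 summits, or 8.10% (95% Wilson interval 7.41% to 8.84%), and for 52.3% of the 862 summits off chromosome 19 that scored above 10. The members lay at 435 genes, which is 2.34% of the 18586 protein-coding genes off chromosome 19. The score and the distance limit fixed these numbers, so they are a description.

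All libraries came from H1299, an established human non-small cell lung cancer line that the labels call lung adenocarcinoma cells, with no treatment or genetic change named. Chromatin was profiled by CUT&RUN, in which an antibody guides a nuclease to its target and the released DNA is sequenced. The groups were 1 library with an antibody against SP1, 1 against H3K27ac, the acetylation of histone H3 at lysine 27 that marks active regulatory DNA, and 1 negative control with IgG, which was not analysed here. The title of the series names SP1, super-enhancers and RGS20. Nothing measured the spread between cultures, so no p-value was computed. Intervals are 95% Wilson intervals of shares or 95% Newcombe intervals of differences; they cover counting error only and treat summits or genes as independent. The files gave no read numbers, so the depth was unknown.

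SP1 is a ubiquitous zinc finger activator. It binds the GC box, a G-rich element common in promoters within CpG islands, and many of the promoters that it serves have no TATA box. Its targets include housekeeping genes, growth control genes and its own gene.

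The promoters of 6 genes show what the members looked like in sequence, with the 250 bases before the RefSeq start given 5′ to 3′ on the gene's strand (GRCh38.p14). Capitals mark a GC box core, GGGCGG or its reverse complement CCGCCC. The first 4 belong to the members of highest score whose summit lay inside the 300-base promoter window and whose window held a GC box. In each of them the summit lay upstream of the boxes. FLYWCH2 encodes a FLYWCH zinc finger family protein and held the member of highest score, 49.7. Its summit was at chr16 position 2882955, 240 bases before the start (chr16:2882945-2883194, plus strand), and its 3 GC boxes began at -113 to -48 bases from the start (negative is upstream), all with CCGCCC on the printed strand. C6orf62, a gene of little known function, scored 43.5 with the summit 199 bases before the start and 1 GC box at -77 bases (chr6:24720837-24721086, minus strand). MLF2, myeloid leukemia factor 2, scored 42.2 at 229 bases before the start (chr12:6753142-6753391, minus strand); of its 3 boxes, 2 are printed and the third begins just past the start. CDIPT, the enzyme that makes phosphatidylinositol, scored 31.8 at 156 bases before the start with 1 box at -63 bases (chr16:29863227-29863476, minus strand).
FLYWCH2: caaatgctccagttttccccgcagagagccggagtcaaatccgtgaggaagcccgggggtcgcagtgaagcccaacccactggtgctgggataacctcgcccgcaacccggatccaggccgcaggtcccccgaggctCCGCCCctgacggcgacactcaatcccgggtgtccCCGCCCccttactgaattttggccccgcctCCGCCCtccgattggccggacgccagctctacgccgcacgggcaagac
C6orf62: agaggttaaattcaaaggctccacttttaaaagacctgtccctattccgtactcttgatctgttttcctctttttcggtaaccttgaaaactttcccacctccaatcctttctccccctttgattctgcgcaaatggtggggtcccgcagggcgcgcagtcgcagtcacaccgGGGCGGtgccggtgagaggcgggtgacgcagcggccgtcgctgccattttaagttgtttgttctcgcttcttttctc
MLF2: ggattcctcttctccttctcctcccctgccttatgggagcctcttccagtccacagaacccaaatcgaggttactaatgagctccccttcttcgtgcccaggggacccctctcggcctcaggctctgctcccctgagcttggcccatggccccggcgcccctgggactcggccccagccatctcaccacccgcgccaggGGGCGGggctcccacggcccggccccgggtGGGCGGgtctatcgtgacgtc
CDIPT: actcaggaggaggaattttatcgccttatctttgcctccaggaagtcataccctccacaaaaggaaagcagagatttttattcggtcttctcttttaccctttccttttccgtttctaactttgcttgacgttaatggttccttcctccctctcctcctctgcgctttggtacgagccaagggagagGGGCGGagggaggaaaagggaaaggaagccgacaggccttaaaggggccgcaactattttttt

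The other 2 are the members of highest score whose summit lay in a window without a GC box. NR6A1, an orphan nuclear receptor, scored 29.6 with the summit 189 bases before the start (chr9:124771312-124771561, minus strand). Its window held an ETS motif (CCGGAAG) and a CREB/ATF motif (TGACGTCA). CNOT8, a deadenylase subunit of the CCR4-NOT complex, scored 23.9 at 220 bases before the start (chr5:154857999-154858248, plus strand). None of the 11 motifs searched was in its window, which says only that those letters were not in these bases.
NR6A1: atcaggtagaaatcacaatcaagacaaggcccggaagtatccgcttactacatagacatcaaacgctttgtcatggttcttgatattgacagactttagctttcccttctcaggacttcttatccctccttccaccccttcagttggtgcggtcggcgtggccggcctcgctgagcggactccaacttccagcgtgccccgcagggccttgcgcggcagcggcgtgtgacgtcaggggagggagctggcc
CNOT8: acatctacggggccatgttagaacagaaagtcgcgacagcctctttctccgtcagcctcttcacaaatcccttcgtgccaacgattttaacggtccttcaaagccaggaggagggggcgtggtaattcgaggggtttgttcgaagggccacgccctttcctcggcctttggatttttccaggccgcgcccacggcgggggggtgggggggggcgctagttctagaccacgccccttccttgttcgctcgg

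The scores of the members fell off steeply from the limit. They ran from 10.001 to 49.7 with a median of 13.5 and quartiles of 11.3 and 17.6. Scores up to 15 made up 60.1% of members (271 summits), and 17 members, or 3.77%, scored above 30. The score is a deposited −log10 value of either p or q, and the files do not say which. The same rule with a score of 10 or less gave 1102 weaker single-end summits, with a median score of 6.69, and 1012 genes (5.44%) had a weaker summit and no strong one. Just above the limit were PPM1L and NDUFA12, both at 10.001, and WIPI1 at 10.019, and just below it RAB22A and TBL2, both at 9.982, and PRPF8 at 9.981. The members farthest from a gene end were at CTC1 (984 bases), CHEK1 (981 bases) and LOC124900417 (954 bases). TMEM39B (1022 bases), CREBRF (1029 bases) and ZFPM1 (1068 bases) were the nearest strong summits outside the distance limit.

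The highest members lay at genes of varied function. After FLYWCH2 came ZBTB3, a BTB zinc finger factor, with a score of 48.6 at 86 bases downstream of the start. ZKSCAN5, a KRAB and SCAN zinc finger factor, scored 42.5 at 104 bases downstream. RPP40, a protein subunit of RNase P, which trims tRNA precursors, scored 35.3 at 157 bases downstream. PRR13 scored 34.6 at 333 bases upstream, and SUCO scored 34.1 at 326 bases downstream. CORO1C, an actin-binding coronin, also scored 34.1, at 378 bases upstream. PRRC2A scored 33.2 at 421 bases upstream, SPATA2L 31.0 at 246 bases upstream and C10orf143 31.0 at 190 bases upstream. FBRS scored 33.6 at 112 bases from its gene end. STUB1, the ubiquitin ligase CHIP that works with chaperones, scored 32.3 at 204 bases from its gene end. The 15 highest thus lay on both sides of their starts.

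Members sat at gene starts. The gene's strand was known from the RefSeq promoter table for 390 of 451 members, and which end was nearer was not used by the rule. Of these, 387 were nearer to the start end, or 99.2% (97.8% to 99.7%). Among weaker single-end summits the start end was nearer for 865 of 901, or 96.0% (94.5% to 97.1%), a difference of 3.23 percentage points (1.39 to 4.80). The 3 members at the other end were at LOC124900417 (954 bases), VMA22, a gene of V-ATPase assembly (556 bases), and ADAMTSL4, a secreted protein of the extracellular matrix (289 bases). VMA22 and ADAMTSL4 were singled out after their values were seen.

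**Figure D1:**
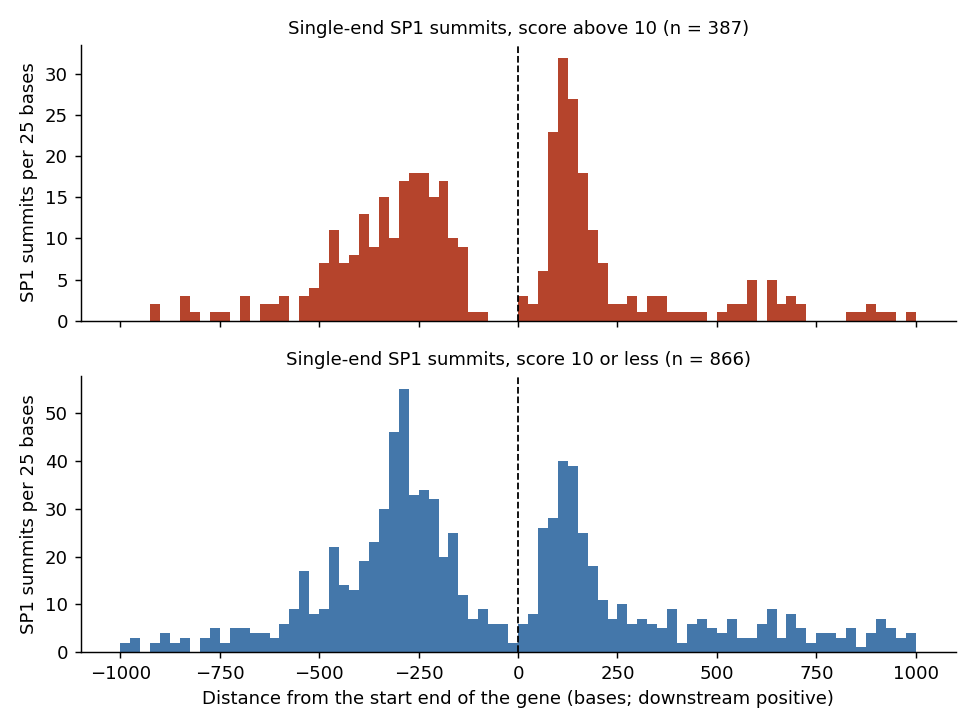
Number of SP1 summits per 25 bases (y axis) against the distance in bases from the start end of the gene (x axis, downstream positive, dashed line at the start), for 387 members scored above 10 (top) and 866 weaker single-end summits (bottom). Both panels show 1 group of summits on each side of the start and few between them.

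Around the start the members formed 2 groups with a gap between them. The zones given here were drawn after the values were seen, so they are a description. The upstream flank, from -400 bases up to the gap, held 142 of 387 members, or 36.7%. The downstream flank, from the gap to 200 bases past the start, held 117, or 30.2%. The gap itself, from -150 to 50 bases, held 16 members, or 4.13% (2.56% to 6.61%). Per 100 bases that is 56.8 summits upstream, 7.96 in the gap and 78.0 downstream. The remaining members lay farther out, 58 upstream and 54 downstream. The downstream group was the narrower, and the median over all members was at -169 bases, with quartiles at -323 and 138.5 bases. A median between such groups describes few single members.

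Weaker summits showed the same shape with a smaller downstream group. Of 866 weaker summits, 36.6% lay in the upstream flank, 6.70% in the gap and 20.2% (17.7% to 23%) in the downstream flank, where the members had 30.2% (25.9% to 35.0%). The shape was seen on both gene strands: members at genes of the plus strand were 36.1% upstream, 2.97% in the gap and 29.2% downstream, and those of the minus strand 37.3%, 5.41% and 31.4%. Measured from the nearest start that the promoter table lists, for 378 members, the shares were 41.0%, 6.35% and 28.6%.

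The 16 members in the gap are the exceptions, and the following were singled out after their values were seen except where stated. RAB40C, a small GTPase that a list named, had the highest score among them, 26.97 at 49 bases downstream. MED20, a Mediator subunit and also named by a list, scored 20.7 at 130 bases upstream of the span start, but at -326 bases from its nearest listed start. CRY1, a repressor of the circadian clock, scored 17.1 at 141 bases upstream. CTDSP2, a phosphatase of the RNA polymerase II tail, scored 16.4 at 79 bases upstream. CLIC4, a chloride channel family protein, scored 13.2 at 10 bases downstream. Apart from CTDSP2, no member upstream of the start was nearer to it than that of ZNF300, a zinc finger gene, at -123 bases.

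**Figure D2:**
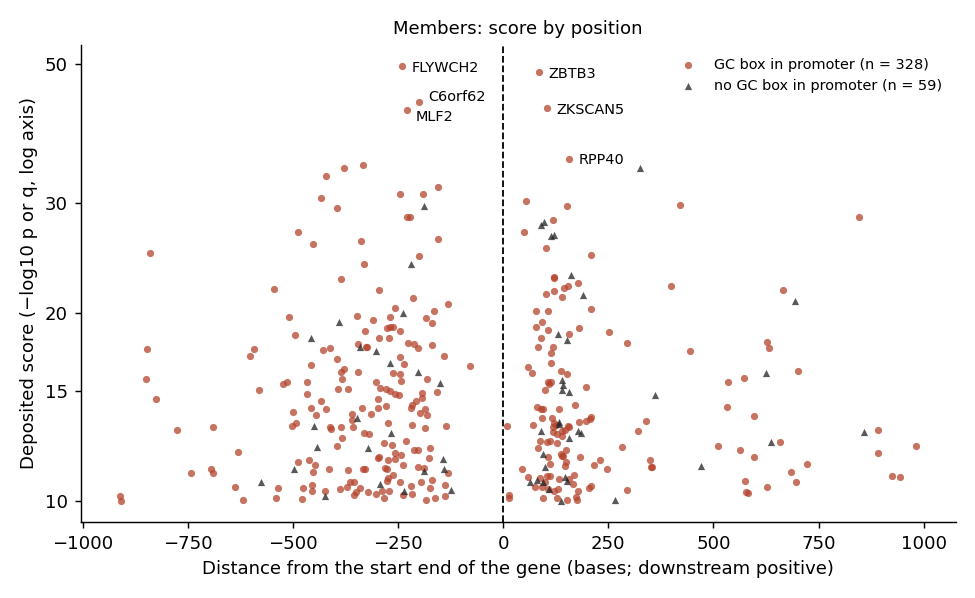
Deposited score (y axis, log scale, −log10 of a p or q value) of each of 387 members against its distance in bases from the start end of the gene (x axis, downstream positive). Circles are members at promoters with a GC box (n = 328) and triangles those without (n = 59); high scores appear in both flanks, and the 6 highest are named.

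Members in both flanks had like scores but differed in how often the promoter window held a GC box. The median score was 14.3 in the upstream flank and 13.3 in the downstream flank, and the median GC content of the promoters was 65.5% and 66.0%. A GC box was in the promoter of 128 of 142 upstream members, or 90.1% (84.1% to 94.0%), and of 90 of 117 downstream members, or 76.9% (68.5% to 83.6%). The difference was 13.2 points (4.21 to 22.5). Weaker summits gave 85.5% and 72.6%, a difference of 12.9 points (5.48 to 20.8), and there the upstream promoters were also richer in GC (67.0% against 63.7%). The longer GC box GGGGCGGGG was in 49.3% of upstream and 46.2% of downstream member promoters, a difference of 3.14 points with an interval from -8.97 to 15.1. For the longer box the interval of the members' flank difference thus contained 0. The promoter window overlaps part of the upstream flank but ends before the downstream flank. These shares thus do not show how often a GC box lay at the summits of either flank.

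Some members lay near a span end of a long noncoding RNA gene. Such a gene end lay within 1000 bases of 129 of 451 members, or 28.6% (24.6% to 32.9%), and of 24% of weaker summits, a difference of 4.65 points with an interval from -0.108 to 9.62. For an lncRNA gene on the strand opposite to the protein-coding gene, with either of its ends counted, it was 102 of 390 members, or 26.2% (22% to 30.7%). Weaker summits had 178 of 901, or 19.8%, a difference of 6.40 points (1.46 to 11.6). Of the 390 members, 4 had a same-strand lncRNA gene and none on the opposite strand, and for 6 the lncRNA strand was unknown. By flank, an opposite-strand lncRNA end lay at 31.6% (23.9% to 40.5%) of downstream members and 19.7% (14% to 27%) of upstream members, a difference of -11.9 points (upstream minus downstream, -22.5 to -1.27). In weaker summits the difference of -4.56 points had an interval from -12.4 to 2.70. Other kinds of gene end were a transcribed pseudogene at 6 members, a tRNA at 4, a miRNA at 2, a pseudogene at 2, a snoRNA at 1 and an antisense RNA at 1. No other gene of any kind lay within 1000 bases of 69.0% of members. How often an lncRNA gene end lies near any protein-coding gene start was not counted. The lncRNA shares are thus not shown to be particular to SP1 summits.

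Some genes carried more than 1 summit. A further single-end SP1 summit of any score was at the gene of 76 members, or 16.9% (13.7% to 20.6%). There were 16 genes with 2 members, spaced 395 to 902 bases apart with a median of 480. Of the 14 with a known strand, 8 had their members on opposite sides of the span start. Sides and distances of pairs were taken from the span start alone, not from other listed starts. PACS2, a trafficking protein between endoplasmic reticulum and mitochondria, had both members downstream, with scores of 29.7 at 421 bases and 11.9 at 891 bases. MNT, a MAX-binding repressor that opposes MYC, had both upstream, with 24.9 at 839 bases and 16.1 at 345 bases. SEH1L, a nuclear pore component, had 16.5 at 457 bases upstream and 17.6 at 118 bases downstream. NXN, nucleoredoxin, had 13.7 at 359 bases upstream and 16.6 at 113 bases downstream. SEH1L and NXN thus had a member on each side of the start, and PACS2 and MNT on 1 side only.

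Among the other genes with 2 members, PIGU, a subunit of the GPI transamidase, had 18.97 at 77 bases and 12.1 at 564 bases downstream. ZNF438, a zinc finger protein, had 18.5 at 157 bases and 12.4 at 659 bases downstream of the span start. From the nearest listed start, its summit scored 18.5 lay at -389 bases. ATF7IP, a cofactor of heterochromatin formation, had 16.1 at 138 bases and 14.1 at 533 bases downstream. FBXO33, an F-box protein, had scores of 16.02 and 13.86 at 402 bases from each other. Over all 14 genes with a known strand, the member nearer to the span start had the higher score in 10 and the lower score in 4, MNT among these. At genes with a known strand, a member and a weaker summit shared a gene in 44 pairs. Of those pairs, 35 lay on opposite sides of the span start, and the median spacing of the 44 was 556 bases. At SP1 the member scored 25.7 at 452 bases upstream and the weaker summit 4.73 at 751 bases downstream. At NQO2, a quinone reductase singled out after its values were seen, the member scored 26.0 at 338 bases upstream and the weaker summit 9.93 at 160 bases downstream.

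The promoters of member genes were rich in GC boxes. The promoter window ran from 250 bases before to 50 bases past a RefSeq start, and 376 of 435 member genes matched an entry. The entry used started within 1000 bases of the span start for 364 of the 376, and exactly at it for 336. For the rest the window lay away from that gene end. At least 1 GC box, GGGCGG on either strand, was in 84.3% (80.3% to 87.6%) of the 376 promoters. Over all 14657 matched promoters off chromosome 19 the share was 57.7%, so that members were 27.3 points above the other promoters (23.2 to 30.7). Promoters of the 820 matched genes with only weaker summits had 78.2%, and the members were 6.14 points above these (1.30 to 10.6). With a score limit of 12 the difference was 5.52 points (-0.0585 to 10.3), and with a limit of 20 it was 3.69 points (-7.74 to 11.3), so that both intervals contained 0. At least 2 GC boxes were in 60.4% of member promoters, 56.3% of weaker ones and 36.4% of all. The longer GGGGCGGGG, which contains the core and so is no separate measure, was in 44.4%, 38.4% and 21.9%. It stood 6.0 points above weaker promoters, with an interval from 0.0165 to 12.

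GC content followed the order of these shares, while the CpG ratio was slightly lower in member than in weaker promoters. The median GC content was 66.7% in member promoters, 66.0% in weaker ones and 62.7% over all, and the observed over expected CpG ratio was 0.857, 0.865 and 0.764. Above the overall median GC content, the GC box was in 92.3% of member promoters, 91.4% of weaker ones and 85.4% of all, and the difference between strong and weaker was 0.923 points with an interval from -3.62 to 4.75. At or below that median, it was in 90 of 130 member promoters, or 69.2% (60.8% to 76.5%), in 53.8% (48.0% to 59.5%) of weaker ones and in 30.9% of all. There the difference between strong and weaker was 15.4 points (5.28 to 24.7). The median GC content of these GC-poor promoters was 58.3% in members, 57.7% in weaker ones and 53.7% over all. The share over all promoters is thus not a comparison at equal GC content. The part of composition in the remaining difference was not tested.

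**Figure D3:**
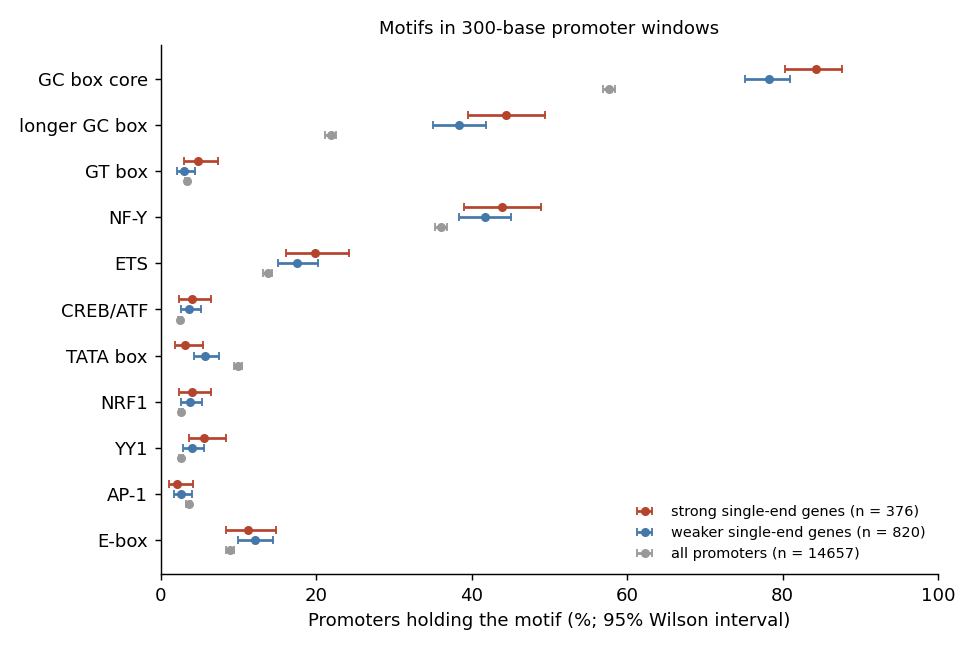
Share of promoters holding each of 11 motifs (x axis, percent, with 95% Wilson intervals as bars) for 376 member genes, 820 genes with only weaker summits and all 14657 promoters (the first 2 groups included). The GC box core reaches 84.3% in members and 57.7% over all promoters, and the TATA box 3.19% and 9.97%.

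Other promoter elements differed by fewer percentage points, from lower shares. The CCAAT box (CCAAT), bound by NF-Y, was in 43.9% of member promoters and 36.1% of all, 8.02 points (3.03 to 13.1) above other promoters. The ETS motif (CCGGAAG) was in 19.9% and 13.8%, a difference of 6.33 points (2.56 to 10.7), and the YY1 motif (AAGATGGCG) in 5.59% and 2.59%, a difference of 3.07 points (1.15 to 5.88). The TATA box (TATAAA) was the one motif whose interval lay below 0, in 3.19% of member promoters and 9.97% of all, a difference from other promoters of -6.95 points (-8.40 to -4.60). For the GT box (GGGTGTGG), CREB/ATF (TGACGTCA), NRF1 (GCGCATGCG), AP-1 (TGACTCA) and E-box (CACGTG) motifs, the interval of the difference from other promoters contained 0. Against promoters with weaker summits, the intervals of the 9 motifs other than both GC boxes contained 0, from 2.39 points for ETS (-2.25 to 7.37) to -2.54 points for TATA (-4.80 to 0.152). All motifs were searched on both strands, and a match is a description of letters, not of binding. As for the GC box, the differences from other promoters are not comparisons at equal GC content. The part of composition in them was not tested.

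Within the promoter window, GC boxes were most frequent just before the start. In member promoters the bin from 50 to 26 bases before the start held a GC box most often, in 32.7% of promoters, with 24.6% in weaker and 17.6% in all promoters. Weaker promoters peaked in the bin from 75 to 51 bases before the start, at 26.6%, where members had 28.7%. From 25 to 1 bases before the start the shares were 23.4% in members and 23.7% in weaker promoters. The median position of all GC boxes in the window was -83 bases in members, -85 in weaker and -78.5 in all promoters. From a member summit to the nearest GC box of the promoter window the median distance was 174 bases (quartiles 129 and 249, 324 summits), and 14 summits, or 4.32%, lay within 50 bases. Weaker summits had a median of 194 bases and 6.61% within 50 bases. The window holds 89 of 451 member summits and ends before the downstream flank, so boxes at most summits could not be seen. These distances are upper limits, and they do not show whether a box lay at the summit.

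**Figure D4:**
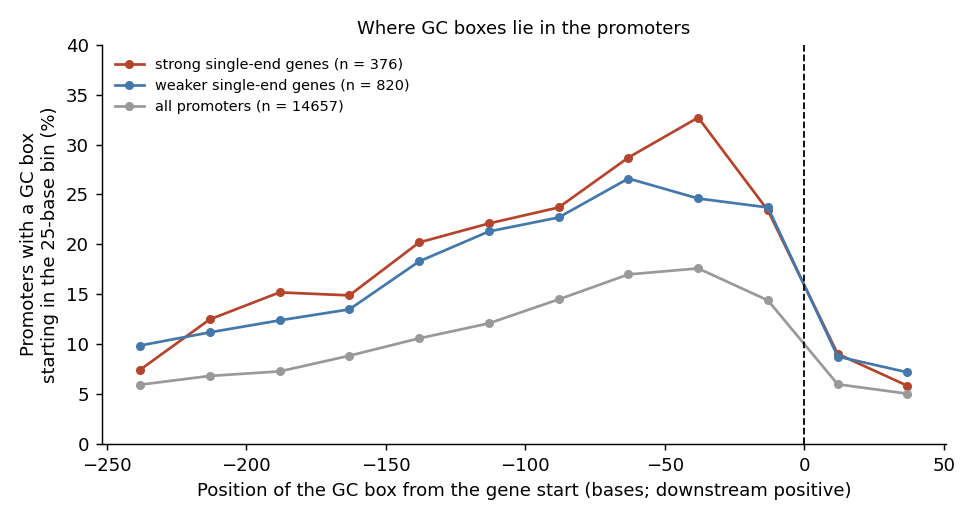
Share of promoters (y axis, percent) with a GC box starting in each 25-base bin of the window from 250 bases before to 49 past the gene start (x axis, bases). Member promoters (n = 376) peak at 32.7% from 50 to 26 bases before the start, weaker ones (n = 820) have 24.6% there and all promoters (n = 14657) 17.6%. Weaker promoters peak at 26.6% from 75 to 51 bases before the start.

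The score showed no steady order with the GC box. From the lowest to the highest of 4 about equal groups of members by score, the share with a GC box was 83.7%, 84.5%, 87.6% and 83.7%, with intervals that overlapped. The median score was 13.1 for members with no box, 13.3 with 1, 14.0 with 2 or 3 and 13.2 with 4 or more. SUCO, at 34.1, had the highest score among members without one in a matched promoter.

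Few members had a called H3K27ac summit nearby. An H3K27ac summit lay within 1000 bases of 1 of 451 members, or 0.222% (0.0392% to 1.25%), and within 500 bases of none, which allows a share of up to 0.845% (Wilson). Weaker single-end summits had 24 of 1102, or 2.18%, within 1000 bases, a difference of members minus weaker summits of -1.96 points (-3.01 to -0.711). Strong SP1 summits at 2 or more genes had 1 of 192, and strong SP1 summits at no gene end had 48 of 219, or 21.9% (16.9% to 27.9%). In the group at no gene end, 44 summits had an H3K27ac summit within 500 bases. Scores there reached 268, against 49.7 in members, and the cause of its larger share was not tested. The single member was at CYP20A1, an orphan cytochrome P450, with an SP1 score of 14.0 at 95 bases downstream of the start and an H3K27ac summit scored 4.35 at 634 bases from it. The H3K27ac list held 3201 summits in all, of unknown depth, so an H3K27ac level below its calling threshold cannot be told apart from none. How often an H3K27ac summit lies near any gene end was not counted. The low share is thus not shown to be particular to the members.

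Within 5000 bases there were 9 members, or 2.0%, and 2.72% of weaker summits, a difference of -0.727 points with an interval from -2.20 to 1.20. The genes other than CYP20A1 were singled out after their values were seen or named by other rules. They were RPL41, a ribosomal protein (1515 bases), PACS2 with both its members (2326 and 2796 bases), KLF13, a relative of SP1 (2528 bases), DIPK2A (2556 bases), MTG1, a mitochondrial GTPase (2852 bases), HSPA1B, a heat shock protein (3831 bases), and ZKSCAN5 (4948 bases). The median distance from a member to the nearest H3K27ac summit was 267 kb, against 275 kb for weaker summits and 154 kb for strong summits at no gene end. The authors' ranked regions, which they labelled enhancers, held few members: 3 (0.665%) lay inside an SP1 region, against 3.09% of weaker summits, and 0 inside an H3K27ac region. Whether gene ends were left out of these regions is not given, so the low shares cannot be read as a trait of the members. The SP1 regions come from the same library as the scores.

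The members' genes were counted in lists of related genes, each read against the 2.34% of all protein-coding genes. The first lists concern SP1 and transcription. Of 24 SP and KLF factors, the family of SP1 itself, 3 were members, or 12.5% (4.34% to 31%): SP1 (25.7), SP2 (14.1, 80 bases downstream) and KLF13 (14.1, 456 bases upstream). Of 17 textbook SP1 targets, a list that includes SP1, 2 were members, or 11.8% (3.29% to 34.3%), SP1 and FASN, the fatty acid synthase (11.4). Of 56 genes with names of RNA polymerase and Mediator subunits, 3 were members: MED20, MED11 (12.6) and POLR2G, a subunit of RNA polymerase II (10.4). Of 17 coactivators and general factors, 1 was a member, BRD3, which reads acetylated lysine (10.5). SETD1A, a histone H3 methylase, was the 1 member (19.7) of 39 histone lysine methylases and demethylases. FOS (12.1) was the 1 member of 9 AP-1 genes. C2H2 zinc finger genes named ZNF or ZSCAN had 10 members of 281, or 3.56% (1.94% to 6.43%), with ZNF131 (22.1), ZNF789 (19.8) and ZNF438 highest.

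Lists of RNA and protein handling had a few members each. Of 29 splicing genes, 3 were members, or 10.3% (3.58% to 26.4%), all of the SR family that selects splice sites: SRSF1 (19.9), SRSF2 (15.4) and SRSF6 (14.95). The 54 genes with names of translation initiation factors had 4, or 7.41% (2.92% to 17.6%), of which EIF5A (20.1) had the highest score; EIF2AK1 (14.0) and EIF2AK3 (13.3) are kinases that phosphorylate an initiation factor, not factors themselves. Of 69 protein phosphatase subunits, 5 were members, or 7.25% (3.13% to 15.9%), among them PPP1R3F (18.7), PPP2R5C (16.1) and PPP2R2D (14.2). F-box genes, which choose substrates of ubiquitin ligases, had 4 of 58, or 6.90% (2.71% to 16.4%), with FBXL19 (19.3), FBXO33 and FBXO5 (12.8) highest. The 34 ubiquitin conjugating enzymes had 2 members, among them UBE2Z (10.9). USP49 (19.3) and USP22 (14.0) were the members of 76 deubiquitinases, and PSMC3, with 17.8 and 10.4, that of 38 proteasome subunits. FARSB, a phenylalanyl-tRNA synthetase subunit (15.4), was the 1 of 19 tRNA synthetases, and DNAJC9 (13.4) the 1 of 44 DNAJ co-chaperones. TRIM41 (10.7) was the 1 of 76 TRIM genes.

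Lists of cell growth and metabolism were similar. Of 24 autophagy genes, 3 were members, or 12.5% (4.34% to 31%): GABARAPL1 (21.1) and GABARAPL2 (17.9), which coat autophagosomes, and WIPI1. Of 24 cell cycle genes, 2 were members, MCM3 (11.2) and MCM7 (10.5), both subunits of the replicative helicase. CYP51A1 (13.2) was the 1 of 21 cholesterol synthesis genes and, with CYP20A1, 1 of 2 among 44 cytochrome P450 genes. MAP3K6 (10.4) and MAP3K3 (10.4) were the 2 of 44 mitogen-activated kinases, RAB40C and RAB28 (13.8) the 2 of 69 RAB GTPases, and NDUFA12 the 1 of 40 genes with names of complex I subunits or assembly factors. Solute carriers had 4 of 370, or 1.08% (0.421% to 2.75%), led by SLC25A10 (13.7), SLC2A4, the insulin-regulated glucose transporter (10.8), and SLC12A5 (10.3). TMEM genes had 4 of 218, led by TMEM102 (21.4), TMEM18 (15.04) and TMEM87B (14.6). The intervals of the SP and KLF, textbook target, autophagy, splicing, translation initiation, phosphatase and F-box lists lay above 2.34%, each on 2 to 5 genes. They are not adjusted for the 37 lists, which were chosen with earlier results known, and no list was tested against others.

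Several lists held no member. Olfactory receptors had 0 of 372, which allows up to 1.02%, below the 2.34% of all genes. The other empty lists were interleukins and their receptors (0 of 81), mitochondrial ribosomal proteins (0 of 73), keratins (0 of 55), collagens (0 of 43), kinesins (0 of 42), lung adenocarcinoma driver genes (0 of 22), RGS genes (0 of 21), TGF-beta and Hippo genes (0 of 20) and NF-kappaB and TNF genes (0 of 19). The upper limits of these lists lay above 2.34%. Cytosolic ribosomal proteins had 1 of 74, RPL41 (10.5). A gene whose summit was shared with a neighbouring gene end is no member, so an absence here is not an absence of SP1 calls.

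**Figure D5:**
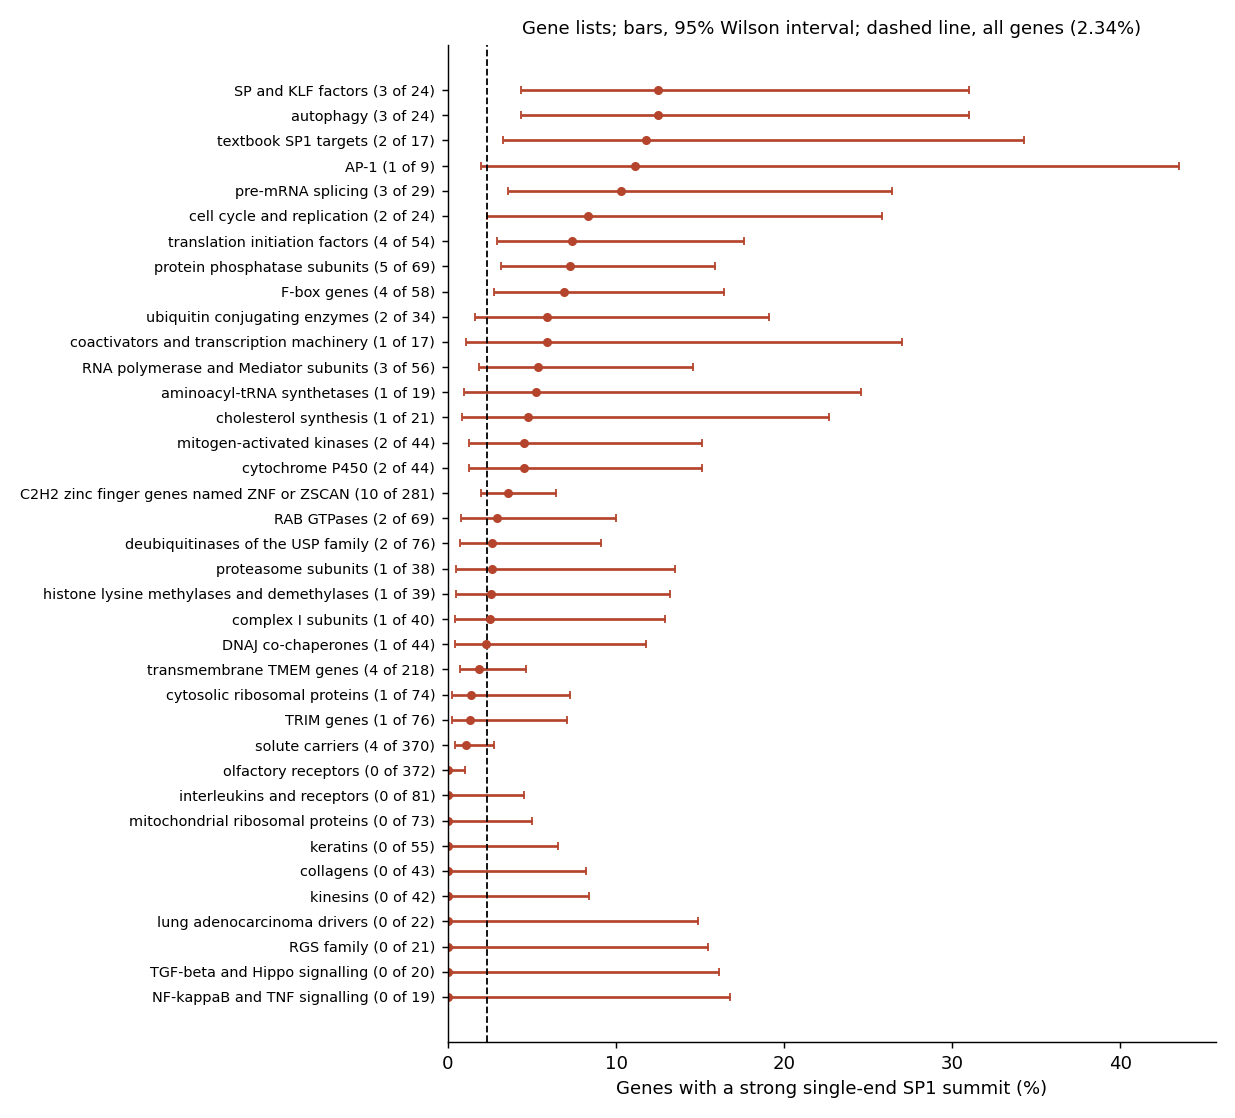
Share of the protein-coding genes off chromosome 19 in each of 37 gene lists that had a strong single-end SP1 summit (x axis, percent; bars are 95% Wilson intervals; counts beside the names), with a dashed line at the 2.34% of all genes. Olfactory receptors are at 0 of 372, and SP and KLF factors and autophagy genes at 3 of 24.

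The labelled cell type could not be checked well on these genes. None of 13 alveolar and airway markers, 10 epithelial, 10 mesenchymal, 8 blood, 6 neuronal and 5 liver markers was a member, and 1 mesenchymal marker had a weaker summit. The members were spread over the chromosomes. Their genes made up 1.18% of the protein-coding genes on chromosome 13, the lowest share apart from Y, where it was 0 of 63, and 3.59% (2.67% to 4.82%) on chromosome 17, the highest. The length of the genes was much like that of other genes, with a median of 28.4 kb against 29.9 kb for genes with weaker summits and 25.7 kb for all.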

How the data were processed

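Summits and ranked regions for SP1 and H3K27ac were taken as the authors deposited them. The summit score in the deposited lists is a −log10 value, by its range and the form of the item names, either of a p-value or of a q-value, and the fifth column of the deposited region lists is a rank, treated as a score. Per the submitters' processing notes the build was hg38, with cutadapt 2.5 and deepTools 3.4.1 named among the tools. Which aligner, peak caller and control were used is not given in the sources used here. Summits were assigned to span ends in the RefSeq gene table, and sequences, starts and strands came from the RefSeq promoter table (both GRCh38.p14), by gene ID. Where a gene had several entries, the entry nearest to the start end of its span was used. Strand was unknown for genes without an entry.

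The members and lists were chosen with earlier results of these data known, and no test was run on them. Genes were named by a rule: the 15 highest members, those at each limit, members within 1000 bases of H3K27ac, up to 8 genes with 2 members by summed score, up to 3 members per list, and the printed promoters, which leave out 1 chromosome. A gene named by it is not reported here. Alternatives were other score limits (8, 12, 20), windows (500 and 2000 bases), chromosome 19 included, other gene counts, motifs and GC strata. Calculations used pandas 2.3.3, numpy 2.4.6 and scipy 1.17.1, and the assignment, interval and motif steps were tested on simulated data.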

Additional observations from a re-analysis of the deposited data

How the results depend on the processing

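Of 62 alternative values of the comparisons, 38 stayed within the error or, for the number of members, within 1.5 times, 23 moved and 1 reversed. With a score above 8 there were 730 members at 3.78% of genes, above 12 their genes were 1.58%, and above 20 there were 69 members at 0.371%. Above 20, 100% were at the start end, 0% had an H3K27ac summit within 1000 bases and 0% lay in an SP1 region. The median distance above 20 reversed to 55.0 bases downstream (-199 to 107), at the inner edge of the downstream flank. Its interval reaches into both flanks, and the cause was not tested. From the nearest listed start the median was -204 bases. The start share was 97.8% with a window of 2000 bases and 97.5% with chromosome 19, which gave 2.67% inside an SP1 region and 2.84% of genes. At least 1 gene in place of exactly 1 gave 4.35% of genes. The H3K27ac share was 0% within 500 bases, 2.0% within 5000 bases and 0% inside H3K27ac regions. The GC box share was 44.4% for the longer box, 60.4% for 2 or more, 92.3% above and 69.2% at or below the median GC content, where the difference from weaker promoters was 0.923 and 15.4 points. Alternatives on GC-poor promoters and on the nearest listed start were chosen after seeing the data. For single lists, 219 of 301 values stayed within 1.5 times and 82 moved. No paired analysis was possible because each antibody had 1 library. Depth was unknown, so nothing here separates weak binding from shallow sequencing.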

Other observations

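The members below were singled out after their values were seen, with no list, share or test behind them. The deacetylase genes HDAC6, HDAC4 and HDAC5 scored 28.5 at 846 bases downstream, 14.2 at 171 bases downstream and 12.4. For HDAC6 this distance is from the span start, and its summit lay 177 bases downstream of its nearest listed start. BAZ1B, a subunit of the WICH remodeler, scored 20.4 at 256 bases upstream, and SMARCA5, the ATPase of the same complex, 10.6 at 455 bases upstream. SMARCB1, a core subunit of the BAF complex, scored 18.6 at 252 bases downstream, SMARCD2 15.4 at 524 bases upstream and ACTL6A 12.3. SRCAP, which exchanges histone H2A.Z, scored 15.7 at 850 bases upstream, and KAT5, the acetyltransferase TIP60, 12.9 at 320 bases downstream. Histone chaperones were ASF1A (15.1), NASP (15.1) and SUPT16H (11.7).

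Transcription factors among the members, chosen in the same way, were the vitamin D receptor VDR (17.7), MXD3 of the MAX network (13.6), SRF (11.6), NR2C2 (11.1), TCF7L2 (10.9), EGR1 (10.6), a zinc finger factor that also binds GC-rich sites, and ETV1 (10.6). Enzymes of redox metabolism were IDH1 (21.8 at 294 bases upstream), which makes NADPH from isocitrate, and PRDX3 (11.8), a mitochondrial peroxiredoxin. EGR1 had no GC box core in its promoter window, and TCF7L2 and NR2C2 had 5 each.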
